A study of Rattus norvegicus with 138 samples.

Results

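The second week after volumetric muscle loss (VML) was described by comparing rat tibialis anterior (TA) muscles taken 14 days post injury (DPI) with muscles taken at 7 DPI. Libraries were chosen by their labels alone: injury VML, run NoRun, day 7 or day 14, and repair NoRepair or MMG. Libraries with fewer than 7000 gene symbols above 1 TPM (a transcript abundance corrected for length and library total) were left out and the libraries of 1 muscle were averaged. This gave 24 muscles, 16 at 7 DPI and 8 at 14 DPI, out of 114 muscles in the series with a usable library and a labelled group, while 3 further libraries of the same muscles were left out.

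All animals were inbred male Lewis rats of about 4 months. VML is the loss of a volume of muscle too large to be replaced by regeneration, here made by a full-thickness punch taken from the middle of 1 TA muscle per rat. At 7 DPI, 8 muscles carried an open defect (NoRepair) and 8 had received a minced graft of their own excised tissue at the defect (MMG), and at 14 DPI there were 4 muscles of each kind. Each muscle at 7 DPI came from another rat than each muscle at 14 DPI, so no animal was measured on both days. Background was given by contralateral TA muscles of the operated rats (label NoVML), 10 at 7 DPI and 4 at 14 DPI, and by 4 control muscles labelled Sham at day 0. The control muscles are the left and right TA of 2 rats, so their n of 4 counts muscles and not animals.

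In injured skeletal muscle, infiltrating macrophages first clear the debris of dead fibers, and satellite cells then divide, fuse and build new fibers that start with embryonic and neonatal contractile proteins before the adult isoforms take over. In a large defect, fibroblasts lay down a collagen matrix in parallel. Fibers that have lost their nerve or are newly formed carry the fetal acetylcholine receptor, with a gamma subunit, along their whole surface, and lose it again when innervated. Values below are TPM, which corrects for transcript length, so levels of different genes can be set side by side. In samples of whole tissue, fewer cells of a type and less RNA per cell cannot be told apart.

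Across 10964 genes, r between muscles was 0.929 to 0.994 at 7 DPI (120 pairs), 0.985 to 0.994 at 14 DPI (28 pairs) and 0.903 to 0.990 between days, where genes are not independent replicates. The 10 skeletal muscle markers checked were present in each of the 24 muscles. The numbers of the rats differed between days: every rat at 14 DPI carried a higher number than any rat at 7 DPI, so rat number and day cannot be told apart. For this reason results are also given against only the 8 muscles at 7 DPI whose rat numbers lie next to those at 14 DPI (the higher-numbered rats). Between the higher- and lower-numbered rats within 7 DPI, 68 of the 10964 genes passed the same thresholds, 60 of them lower in the higher-numbered rats. With a limma adjusted p under 0.05 alone, 3963 genes differed between these rats, beside 8976 between the days. The rat of non-repaired replicate 1 at 7 DPI has 1 contralateral library labelled day 3 and another labelled day 7, so its labels conflict. Without this rat 976 genes were called, 96 higher and 880 lower.

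A gene was called when the limma test, with repair as a covariate, gave a Benjamini-Hochberg adjusted p under 0.05 and a difference beyond 1 on the log2(TPM + 1) scale. Of 10964 genes tested, 1005 (9.17%) were called, 98 higher (0.894%) and 907 lower (8.27%) at 14 than at 7 DPI. For 326 of the called genes (2.97% of those tested) the muscles of the 2 days did not overlap, and over all genes 1.98% lay wholly higher and 12.1% wholly lower at 14 DPI. This split depended on the scale. TPM values share a fixed total, and the 22 tested genes of adult fast fibers took a median 12.2% of all TPM at 7 DPI (7.8 to 19.9%) and 26.2% at 14 DPI (23.7 to 30.4%), and the median gene differed by -0.40. After division by median-of-ratios size factors the median gene differed by -0.02, and 622 genes (5.67%) were called, 365 higher (3.33%) and 257 lower (2.34%). Against the higher-numbered rats alone 558 genes were called, 67 higher (0.611%) and 491 lower (4.48%). Counts of groups below are therefore given after this rescaling as well, and against the higher-numbered rats where they were smaller there by more than 1.5 times.

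The gene that differed most was Spp1, which encodes osteopontin, a secreted glycoprotein of wound macrophages. Spp1 measured 36.4 to 1719 TPM at 7 DPI (median 894) and 5.95 to 31.2 TPM at 14 DPI (median 18.9). At 7 DPI the median was 197 TPM in non-repaired muscle (36.4 to 1535) and 1086 TPM in grafted muscle (664 to 1719). No muscle at 14 DPI reached the lowest muscle at 7 DPI, and control muscle held 0.55 ± 0.20 TPM (SD, n = 4). The log2 difference was -4.86 (SE 0.49, limma adjusted p 9.18e-09), or 29.1-fold lower. It was -4.21 in non-repaired and -5.51 in grafted muscle alone, and the difference between arms was not called (-1.30, SE 0.96). Il1rl1, the receptor for interleukin-33, measured 19.6 to 112 TPM at 7 DPI (median 49.8) and 2.72 to 8.31 TPM at 14 DPI (median 4.26), again without overlap (-3.15, SE 0.19). Tnn, which encodes the matrix protein tenascin-N, was listed at 0 TPM in all control muscles, held 69.8 to 225 TPM (median 155) at 7 DPI and 11.1 to 42.2 TPM (median 22.1) at 14 DPI (-2.65, SE 0.22). The remaining genes of the 10 largest falls without overlap were the heme-degrading enzyme Hmox1 (-2.53), the fatty acid binding protein Fabp5 (-2.37), the phagocyte membrane protein Gpnmb (-2.31), the protease inhibitor Timp1 (-2.31), MGC105649 (-2.23), the galectin Lgals3 (-2.16) and the leukocyte gene Lst1 (-2.14). All 10 were also called lower after rescaling.

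At the other end stood Ky, the kyphoscoliosis peptidase of the muscle Z-disc. Ky measured 8.53 to 50.8 TPM at 7 DPI (median 23.8) and 84.4 to 152 TPM at 14 DPI (median 118). The groups did not overlap, and the level at 14 DPI was next to that of control muscle (118 ± 23.1 TPM, SD, n = 4). The log2 difference was 2.30 (SE 0.19, limma adjusted p 7.72e-10), or 4.91-fold higher. Mybpc2, the myosin binding protein C of fast fibers, measured 216 to 1496 TPM at 7 DPI (median 609) and 1778 to 2996 TPM at 14 DPI (median 2071), a log2 difference of 1.86 (SE 0.24). The other genes of the 10 largest rises without overlap were Sec14l5 (1.69), Adhfe1 (1.65), Adam11 (1.61), the glycogen phosphorylase kinase subunit Phkg1 (1.60), the fast-fiber alpha-actinin Actn3 (1.56), the cytosolic 5'-nucleotidase Nt5c1a (1.54), the ATP receptor P2rx6 (1.52) and the mitochondrial glycerol phosphate dehydrogenase Gpd2 (1.46). All 10 were called higher after rescaling too. Against the higher-numbered rats alone the 20 genes kept their directions, with Spp1 at -4.16 and Ky at 2.03.

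**Figure D1:**
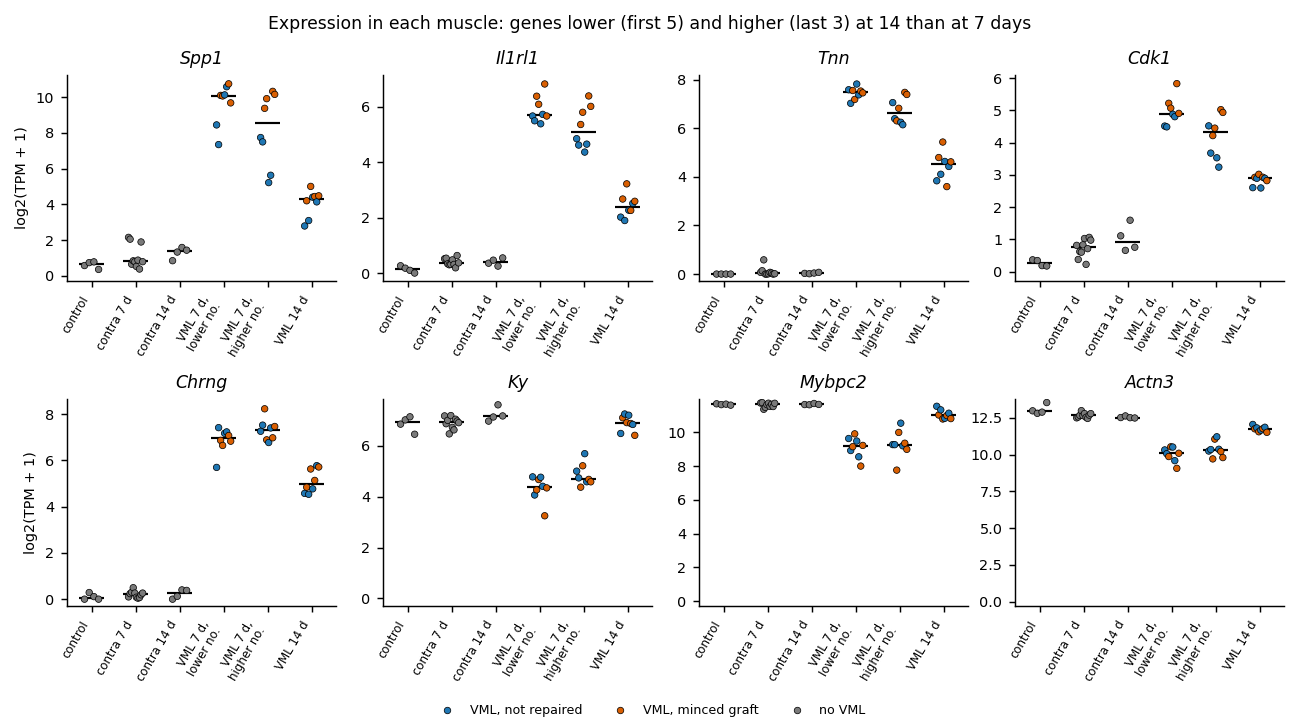
Expression of 8 genes in each muscle on the log2(TPM + 1) scale, in control muscle, in contralateral (contra) muscle at 7 and 14 DPI, in VML muscle at 7 DPI split into lower- and higher-numbered rats, and in VML muscle at 14 DPI. Points are muscles, colored by repair, and bars are medians. Spp1, Il1rl1, Tnn and Cdk1 at 14 DPI lie below every muscle at 7 DPI, Chrng at 14 DPI overlaps with the lowest muscle at 7 DPI, and Ky, Mybpc2 and Actn3 lie above every muscle at 7 DPI.

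Most genes of monocytes and of leukocytes in general were lower at 14 than at 7 DPI. Of 39 pan-leukocyte and monocyte genes, 33 were called lower and 0 higher, with a median of -1.44 beside -0.40 over all genes. After rescaling 23 were called lower (median -1.07). The leading member was Lyz2, the lysozyme of macrophages and neutrophils, at 451 to 3439 TPM at 7 DPI (median 1868) and 277 to 577 TPM at 14 DPI (median 347). The day groups of Lyz2 overlapped at the low end of 7 DPI (-2.13, SE 0.23). Itgb2 and Itgam, the 2 chains of the myeloid integrin Mac-1, fell by 1.87 and 1.81 on the log2 scale, and Clec7a, the beta-glucan receptor of macrophages, fell by 1.85. The summed level of these 39 genes had a median of 3261 TPM at 7 DPI (973 to 5700) and 763 TPM at 14 DPI (644 to 1204), while control muscle held 42.7 to 76.1 TPM. Every muscle at 14 DPI lay above every control muscle in this sum. In contralateral muscle the same sum had medians of 127.2 and 122.4 TPM on the 2 days.

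Lipid-associated macrophages take up the lipid of dead cells and are rich in lysosomal enzymes. Of 33 genes of this state and of lysosomes, 24 were called lower and 0 higher (median -1.32), and 11 after rescaling (median -0.89). Besides Spp1, Fabp5, Gpnmb and Lgals3, the list's large differences were Mmp12, the macrophage elastase (-2.73, SE 0.55), Trem2, the lipid-sensing receptor (-2.30, SE 0.24), Cd68, a lysosomal membrane protein of macrophages (-1.87, SE 0.22), the apolipoprotein Apoc1 (-1.82) and the protease cathepsin L, Ctsl (-1.81, SE 0.11). Ctsl, at 511 to 1285 TPM at 7 DPI and 210.2 to 298 TPM at 14 DPI, separated the days without overlap, whereas Mmp12 ranged from 2.25 to 192 TPM at 7 DPI and overlapped with 14 DPI (1.28 to 10.4 TPM). The median of Mmp12 at 7 DPI was 83.8 TPM in lower-numbered and 23.3 TPM in higher-numbered rats, and against the latter alone its difference was -1.49.

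Macrophages also occur in resident and alternatively activated states, which take part in repair. Of 21 such genes 10 were called lower (median -0.94), 3 after rescaling and 5 against the higher-numbered rats. Hmox1 (45.7 to 833 TPM at 7 DPI, 17.5 to 39.6 TPM at 14 DPI, -2.53) was called on both scales. Folr2 (-1.36) and Mrc1, the mannose receptor (-1.19), were called on the TPM scale but not after rescaling (-0.93 and -0.77).

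Signals that recruit and activate these cells were lower as well. Of 27 chemokines, 15 were called lower and 0 higher (median -1.04), 9 after rescaling and 9 against the higher-numbered rats. The monocyte attractants Ccl7 (median 48.8 to 10.025 TPM, -2.18, SE 0.31), Ccl12 (16.1 to 2.46 TPM, -2.07, SE 0.30) and Ccl2 (58.4 to 14.5 TPM, -1.92, SE 0.28) fell together with Cxcl13, an attractant of B cells (-2.03, SE 0.28, with 6.21 to 59.4 TPM at 7 DPI and 3.17 to 7.70 TPM at 14 DPI). No chemokine separated the days without overlap. Of 35 inflammatory cytokines and mediators, 19 were lower (7 after rescaling, 11 against the higher-numbered rats), among them Il1rn, the interleukin-1 receptor antagonist (-2.12), and Cybb, the phagocyte oxidase subunit (-1.69). The complement receptors C5ar1 (-1.60) and C3ar1 (-1.59) were among 10 of 26 complement genes called lower (4 after rescaling, when 1 was higher, and 5 against the higher-numbered rats).

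Cd8a and Cd8b encode the coreceptor of cytotoxic T cells. Of 26 T, NK and B cell genes Cd8a (16.2 to 2.94 TPM in median, -2.03), Cd8b (-1.41) and Il7r (-1.19) were called lower. These 3 were 11.5% of the list, beside 8.27% of all genes called lower. After rescaling 2 genes of the list were lower and 1 higher. Of 12 neutrophil genes 5 were lower, among them the calprotectin subunits S100a8 (-1.26) and S100a9 (-1.27), of which neither was called after rescaling, when 1 of the 12 was lower. In contralateral muscle these genes differed by -1.06 and -0.69, where neither was called. Antigen presentation by MHC class II had 8 of 17 genes lower (2 after rescaling, 4 against the higher-numbered rats), led by the lysosomal protease Lgmn (-1.73) and including RT1-Da (239 to 116 TPM in median, -1.08), the rat class II alpha chain. Interferon-response genes had 9 of 34 lower, 0 after rescaling and 4 against the higher-numbered rats. Leaving out 1 muscle gave 5 to 13, the former without the grafted replicate 4 at 14 DPI. Cxcl10 (-1.45, SE 0.47) ranged widely at 14 DPI, from 1.58 to 51.3 TPM, and Irf8, a myeloid transcription factor, fell by 1.39 with no overlap. Genes of iron and metal handling had 7 of 18 lower (3 after rescaling), among them ferritin light chain Ftl1 (-1.32) and the metallothionein Mt1 (-1.56).

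**Figure D2:**
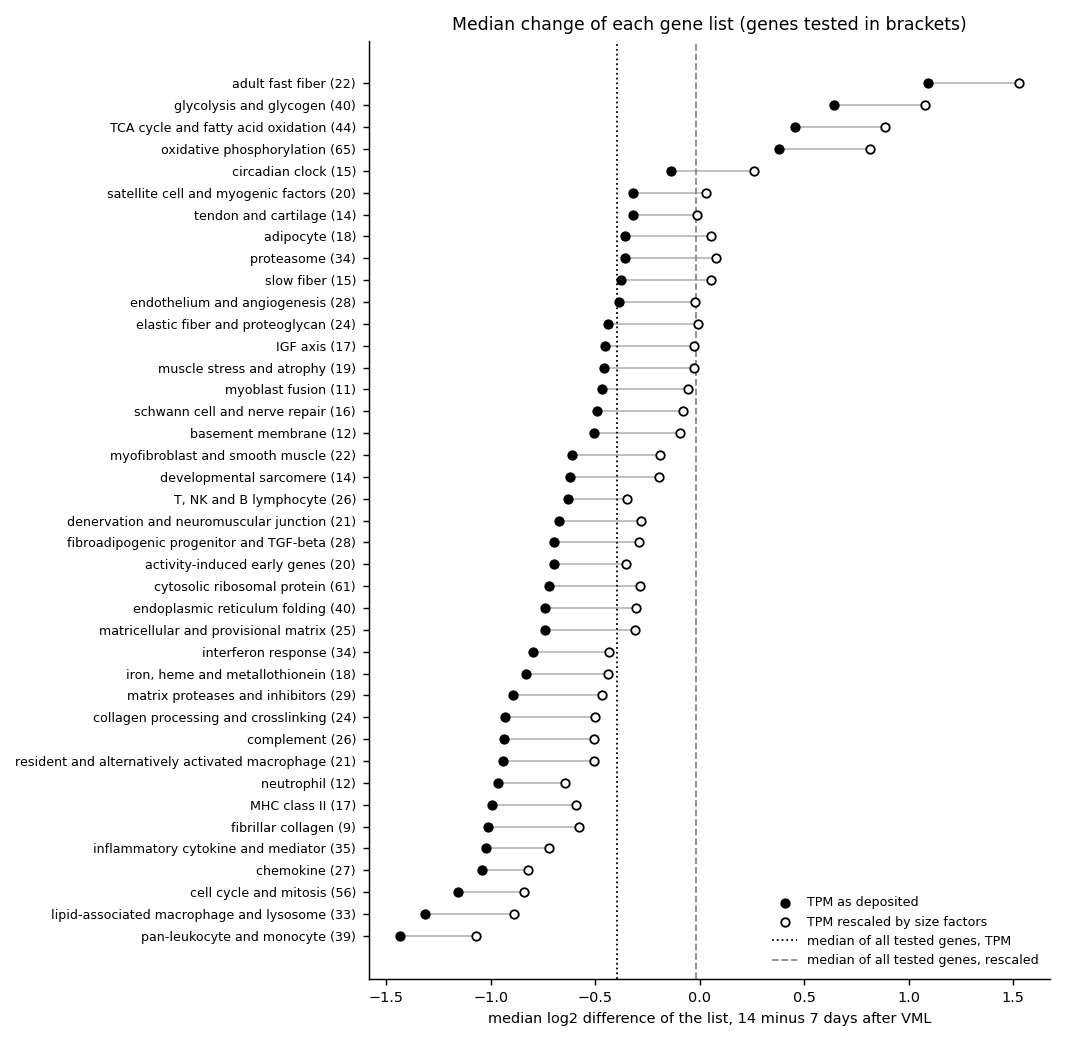
Median log2 difference, 14 minus 7 DPI, of the gene lists in VML muscle, with the number of tested genes in brackets. Filled circles are TPM as deposited and open circles TPM rescaled by size factors, and the lines mark the medians of all tested genes on each scale. Leukocyte, lysosome and cell cycle lists lie farthest below the lines and adult fast fiber genes farthest above, while among the lists plotted those of myogenic factors, adipocytes, the proteasome, slow fibers and the circadian clock change sign with the scale.

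Cell division genes were lower as a group. They encode the machinery of DNA replication and mitosis and are transcribed in cycling cells of any type. Of 56 genes, 39 were called lower and 0 higher (median -1.16), and 19 were called lower after rescaling (median -0.84). For 41 of the 56 the 2 days did not overlap, beside 12.1% of all genes with non-overlapping lower values. Cdk1, the mitotic kinase, measured 8.45 to 55.8 TPM at 7 DPI (median 24.4) and 5.04 to 7.10 TPM at 14 DPI (median 6.43), a difference of -1.75 (SE 0.20). The ribonucleotide reductase subunit Rrm2 led the list (19.7 to 4.22 TPM in median, -1.87). Ccna2 (-1.59), Plk1 (-1.52), Ccnb2 (-1.52), Cdc20 (-1.46), Top2a (-1.38) and the proliferation marker Mki67 (-1.32) followed, and of these Mki67 was not called after rescaling (-0.98). Against the higher-numbered rats alone, 24 of the 56 genes were called lower.

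The promoters of Cdk1, Ccnb2 and Cdc20 are shown because these genes fell together and carry the letter motifs for which cell cycle promoters are known, the CCAAT box and TTTGAA, the cell cycle homology region. The sequences are the 250 bases before the RefSeq gene start in build GRCr8, 5' to 3' on the strand of the gene, with matches to CCAAT or TTTGAA on either strand in capitals. Cdk1 lies on the plus strand (chr20:19265043-19265292), and Ccnb2 (chr8:79981659-79981908) and Cdc20 (chr5:137255800-137256049) on the minus strand.
Cdk1: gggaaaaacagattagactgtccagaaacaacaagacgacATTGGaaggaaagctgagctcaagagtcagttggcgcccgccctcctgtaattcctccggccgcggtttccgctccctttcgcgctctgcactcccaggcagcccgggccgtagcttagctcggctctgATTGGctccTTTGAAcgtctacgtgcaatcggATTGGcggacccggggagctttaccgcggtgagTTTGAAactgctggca
Ccnb2: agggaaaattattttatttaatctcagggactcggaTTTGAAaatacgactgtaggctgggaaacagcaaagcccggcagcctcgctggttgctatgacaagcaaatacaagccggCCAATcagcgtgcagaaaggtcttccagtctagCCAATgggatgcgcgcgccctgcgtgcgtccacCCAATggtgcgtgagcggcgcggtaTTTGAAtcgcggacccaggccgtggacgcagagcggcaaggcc
Cdc20: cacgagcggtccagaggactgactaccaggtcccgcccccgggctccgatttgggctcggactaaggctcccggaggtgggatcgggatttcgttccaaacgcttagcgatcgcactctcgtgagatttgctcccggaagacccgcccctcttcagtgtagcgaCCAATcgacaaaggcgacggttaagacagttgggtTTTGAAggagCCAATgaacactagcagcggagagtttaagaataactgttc
Cdk1 and Ccnb2 each held 3 matches to CCAAT and 2 to TTTGAA, and Cdc20 held 2 and 1. Each motif was counted on both strands, and neighbouring matches of the 2 motifs may share an end letter. A promoter was matched for 32 of the 39 cell division genes called lower: 25 (78.1%) held CCAAT, 14 (43.8%) held TTTGAA and 14 (43.8%) held both. Of 43 matched promoters among all 56 cell division genes tested, 74.4% held CCAAT, 34.9% TTTGAA and 32.6% both. Among 27457 promoters of the same length, the shares were 34.3%, 16% and 5.76%. These are matches of letters in a window and no measurement of binding.

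The provisional matrix of a wound is built from adhesive glycoproteins before collagen replaces it. Of 25 matricellular genes 10 were called lower (median -0.74), 4 lower and 2 higher after rescaling, and 4 lower and 1 higher against the higher-numbered rats. Leaving out 1 muscle gave 6 to 10, the former without the non-repaired replicate 1 at 7 DPI. After Spp1 and Tnn came Tgfbi (430.0 to 95.5 TPM in median, -1.78) and tenascin-C, Tnc (190.3 to 48.8 TPM, -1.75), both without overlap, and fibronectin Fn1 (567 to 203 TPM, -1.20). The fibrillar collagens had 5 of 9 genes lower (median -1.01), of which only Col5a3 (-1.62) was called after rescaling. Against the higher-numbered rats 1 of the 9 was called lower, and leaving out 1 muscle gave 3 to 6, with 3 without the non-repaired replicate 1 at 7 DPI and without the grafted replicate 3 or 4 at 14 DPI. Col1a1, the main collagen of scar, measured 1669 to 5618 TPM at 7 DPI (median 3592) and 1256 to 3026 TPM at 14 DPI (median 1457). Its difference of -1.04 (SE 0.19) was just past the threshold, was -0.60 after rescaling and -0.70 against the higher-numbered rats, where it was not called, and left the level at 14 DPI above the 17.6 ± 4.40 TPM (SD, n = 4) of control muscle. Of 24 collagen-processing genes 10 were lower, but only the procollagen protease Adamts14 (-1.47) was called after rescaling. Against the higher-numbered rats 1 of the 24 was called. The leucine-rich proteoglycan lumican, Lum (1586 to 448 TPM in median), fell by 1.46.

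The proteolytic genes of the matrix had 13 of 29 lower and 0 higher, and 10 after rescaling. Timp1, the inhibitor of matrix metalloproteinases, measured 83.9 to 578 TPM at 7 DPI and 35.0 to 81.7 TPM at 14 DPI. The collagenase Mmp13 (-2.04, SE 0.38), Mmp3 (-1.84, SE 0.42) and Mmp19 (-1.78, SE 0.18) fell with Mmp12. Mmp3 was not called against the higher-numbered rats alone (-0.76). The gelatinase Mmp2 was not called (499 to 276 TPM in median, -0.63).

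Contractile genes of myofibroblasts and smooth muscle had 6 of 22 lower and 0 higher, and 2 lower and 2 higher after rescaling. Lower were, among others, Tagln (-1.48) and Actg2 (-1.68), which were also called after rescaling, and Acta2 (-1.30), which was not. Tpm1 (0.98), Synpo2 (0.90) and Tpm2 (0.55), which striated fibers transcribe as well, were above 0 at an unadjusted p under 0.05 and missed the fold threshold, and Tpm1 (1.42) and Synpo2 (1.33) were called higher after rescaling. The summed level of the list had a median of 22380 TPM at 7 DPI (17010 to 30230) and 34670 TPM at 14 DPI (31920 to 40130), without overlap. The sum was larger in muscle without VML, with medians of 47490 TPM in control and 41240 and 47500 TPM in contralateral muscle at 7 and 14 DPI. Fibroadipogenic progenitors are the mesenchymal cells of muscle that give rise to fibroblasts and fat cells. Of 28 genes of these cells and of TGF-beta signaling, 6 (21.4%) were called lower and 0 higher, with all 28 below 0 on the TPM scale and 21 after rescaling (medians -0.70 and -0.29). Called lower were 1 after rescaling and 2 against the higher-numbered rats. Snai1, Pdpn and Tgfb1, given with the genes that the study discusses, were among the 6. The tendon factor Scx (-1.14) was 1 of 3 lower (21.4%) among 14 tendon and cartilage genes (0 lower and 1 higher after rescaling), the endothelial gene Plvap (-1.02) the only called among 28 (3.57%), and the neuregulin receptor Erbb3 of Schwann cells (-1.27) the only called among 16 (6.25%), beside 8.27% of all genes called lower. None of Scx, Plvap and Erbb3 was called after rescaling (-0.71, -0.60 and -0.91), and Scx differed by -0.68 in contralateral muscle. Plvap was also not called without the non-repaired replicate 1, 3 or 4 or the grafted replicate 1 or 3 at 7 DPI, or without the non-repaired replicate 2 or the grafted replicate 3 at 14 DPI (-0.97 to -0.99). A second Schwann cell gene was called without the non-repaired replicate 7 or 8 or the grafted replicate 5 at 7 DPI. Hemoglobin and other blood cell genes had 0 of 8 called by limma (median -0.09, 0.35 after rescaling). At an unadjusted p under 0.05 on the TPM scale 3 were lower, beside 7957 lower of all 10964 genes. Adipocyte genes had 2 of 18 lower (11.1%, beside 8.27% of all genes) and 1 higher (5.56%, beside 0.894%). After rescaling 1 was lower and 1 higher, and against the higher-numbered rats also 1 and 1. Of 6 ribosomal and other structural RNAs, a sign of RNA quality here, 2 (Rn45s and Rn5s) were called lower, 0 after rescaling or against the higher-numbered rats by limma (2 lower on the TPM scale at an unadjusted p under 0.05), and 1 without the non-repaired or the grafted replicate 1 at 7 DPI. Their median difference was -0.93 in VML and -0.80 in contralateral muscle. They held a median 0.22% of TPM at 7 DPI (0.0766 to 16.2%) and 0.106% at 14 DPI (0.0817 to 0.25%). The part of these signals in the results was not tested.

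Genes of immature and denervated fibers were lower in part. Of 21 genes of denervation and the neuromuscular junction 7 were called lower and 0 higher, and 4 lower and 1 higher after rescaling. Chrng, the fetal gamma subunit of the acetylcholine receptor, measured 51.0 to 301 TPM at 7 DPI (median 138.8) and 22.2 to 53.8 TPM at 14 DPI (median 30.975), with 0.075 ± 0.104 TPM in control (SD, n = 4). Only the lowest muscle at 7 DPI, a muscle of the lower-numbered rats, came within the range at 14 DPI (-1.97, SE 0.22). The delta subunit Chrnd (-1.82), the neural cell adhesion molecule Ncam1 (-1.73), Gadd45a (-1.44) and the alpha subunit Chrna1 (-1.37) fell too, and of these Chrna1 was not called after rescaling (-0.94). Against the higher-numbered rats alone 9 genes of the list were called lower, and Chrng (-2.20), Chrnd (-2.19), Ncam1 (-2.07), Gadd45a (-1.79) and Chrna1 (-1.70) each differed by more. In contralateral muscle Chrnd differed by -1.08 and Gadd45a by -0.85, where neither was called.

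The promoters of Chrng and Chrna1 are shown because receptor subunit genes are known targets of myogenic factors, which bind the E-box CAGCTG. The 250 bases before the RefSeq gene start in GRCr8 are given as above, with CAGCTG, which reads the same on both strands, in capitals. Chrng lies on the plus strand (chr9:95325734-95325983) and Chrna1 on the minus strand (chr3:78877354-78877603).
Chrng: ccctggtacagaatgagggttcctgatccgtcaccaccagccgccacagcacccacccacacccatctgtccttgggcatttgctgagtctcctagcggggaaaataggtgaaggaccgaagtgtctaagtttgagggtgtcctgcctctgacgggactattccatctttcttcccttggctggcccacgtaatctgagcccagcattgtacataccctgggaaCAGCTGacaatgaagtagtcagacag
Chrna1: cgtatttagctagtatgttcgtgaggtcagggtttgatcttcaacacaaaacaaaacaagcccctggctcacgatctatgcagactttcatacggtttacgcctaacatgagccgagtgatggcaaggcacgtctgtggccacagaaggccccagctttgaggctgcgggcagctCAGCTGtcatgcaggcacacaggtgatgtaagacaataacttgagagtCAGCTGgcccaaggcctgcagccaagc
Chrng held 1 match and Chrna1 held 2. Of 15 tested genes of the list with a matched promoter 7 (46.7%) held CAGCTG, and of the 6 called lower 2 (33.3%), beside 11.9% of 27457 promoters.

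Among myogenic factors 2 of 20 genes (10%) were called, both lower, beside 8.27% of all genes called lower. By limma 0 were called after rescaling, while 12 were lower and 1 higher at an unadjusted p under 0.05 on the TPM scale. Over all 10964 genes 7957 were lower and 1103 higher at that unadjusted p. Only 1 gene was called without the grafted replicate 3 or the non-repaired replicate 4 at 7 DPI. The same held without the grafted replicate 1, 3 or 4 at 14 DPI, and in these fits Msc was not called (-0.941 to -0.999). Myogenin, Myog, which drives differentiation, measured 131.2 to 645 TPM at 7 DPI (median 327) and 96.6 to 193 TPM at 14 DPI (median 132.3), a difference of -1.20 (SE 0.18) that was -0.77 after rescaling. The repressor Msc, or musculin, differed by -1.03 (-0.63 after rescaling). Pax7 of satellite cells (-0.27), Myod1 (0.08), Myf5 (-0.96) and Myf6 (-0.63) were not called, and after rescaling Pax7 stood at 0.07 and Myod1 at 0.50. Tmem8c, the fusion protein myomaker, fell without overlap from 71.2 to 189.7 TPM (median 111) to 26.97 to 59.2 TPM (median 41.9), a difference of -1.52 (SE 0.13) that was also called after rescaling (-1.10).

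Developmental sarcomere genes had 5 of 14 lower and 0 after rescaling. In contralateral muscle their median difference was -0.37 and their summed level had medians of 2002 TPM at 7 DPI and 1218 TPM at 14 DPI, beside 8523 and 5051 TPM in VML muscle. Embryonic myosin light chain Myl4 (1011 to 403 TPM in median, -1.35), embryonic and cardiac troponin T, Tnnt2 (322 to 124 TPM, -1.32), and cardiac actin Actc1 (1702 to 887 TPM, -1.02) were called. The embryonic myosin heavy chain Myh3 was not (215 to 151 TPM, -0.63). At 14 DPI Myl4 still exceeded control muscle (32.6 ± 4.18 TPM, SD, n = 4) in every muscle, with a minimum of 249.6 TPM.

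Genes of mature fast fibers were higher at 14 DPI. Of 22 adult fast fiber genes 13 were called higher and 0 lower (median 1.09), 21 were called higher after rescaling (median 1.53), and 9 were called higher against the higher-numbered rats alone. Pvalb, the calcium buffer parvalbumin of fast fibers, measured 4002 to 12369 TPM at 7 DPI (median 6749) and 15302 to 22035 TPM at 14 DPI (median 17263), with 15172 ± 1128 TPM in control (SD, n = 4). The days did not overlap (1.43, SE 0.16). The calcium store protein Casq1 (1.34), the creatine kinase Ckm (1.26) and skeletal actin Acta1 (1.24, from 16778 to 39216 TPM in median) separated the days as well. The fast myosin Myh4 was called (4363 to 9224 TPM, 1.14) but stood below control at 14 DPI (23565 ± 2149.7 TPM, SD, n = 4). Of 15 slow fiber genes 0 were called by limma (2 higher after rescaling), and 8 had an unadjusted p under 0.05, 1 of them higher and 7 lower. Over all 10964 genes 1103 were higher and 7957 lower at that unadjusted p. In contralateral muscle 2 of the 15 were called lower, Myl2 and Sln, with a median of -0.48 beside -0.38 in VML muscle. The slow myosin Myh7 (0.37, SE 0.58) and light chain Myl2 (0.56, SE 0.55) had differences close to or below their SE, and both were below 0 against the higher-numbered rats alone (-0.55 and -0.25). Leaving out 1 muscle gave 0.034 to 0.694 for Myh7, without the grafted replicates 1 and 4 at 14 DPI, respectively, and 0.367 to 0.787 for Myl2, without the non-repaired replicates 3 and 1 at 14 DPI, respectively.

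Glycolytic enzymes exist in forms of adult muscle and forms of other tissues. The glycolysis and glycogen list had 11 of 40 genes higher and 10 lower, and 22 higher and 3 lower after rescaling. There were 7 higher and 7 lower against the higher-numbered rats. Higher were the muscle forms enolase 3, Eno3 (2981 to 7673 TPM in median, 1.30), phosphoglycerate mutase 2, Pgam2 (2156 to 5107 TPM, 1.23), muscle glycogen phosphorylase Pygm (1767 to 4079 TPM, 1.18) and Phkg1. Lower were forms used by leukocytes and other tissues: hexokinase 3, Hk3 (8.65 to 1.16 TPM, -1.98), the basal glucose transporter Slc2a1 (12.7 to 3.74 TPM, -1.58), liver phosphorylase Pygl (-1.27), liver phosphofructokinase Pfkl (-1.25) and Pgam1 (-1.10). Of these, Pygl (-0.90), Pfkl (-0.86) and Pgam1 (-0.67) were not called after rescaling. The insulin-responsive transporter Slc2a4 (0.94) and muscle phosphofructokinase Pfkm (0.92) missed the fold threshold and were called higher after rescaling.

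Mitochondrial genes mostly lay above the median gene. Of 65 nuclear oxidative phosphorylation genes 0 were called by limma, though 55 were higher and 2 lower at an unadjusted p under 0.05. Over all 10964 genes 1103 were higher and 7957 lower at that unadjusted p. The median of the 65 was 0.38 where all genes had -0.40. For 10 of them the days did not overlap, all higher at 14 DPI, beside 1.98% of all genes wholly higher. After rescaling 18 were called higher (median 0.81), and of 44 genes of the citric acid cycle and fatty acid oxidation 17 (0 on the TPM scale by limma, where 33 were higher and 2 lower at an unadjusted p under 0.05, median 0.45). Examples were the ATP synthase subunit Atp5b (2017 to 3572 TPM in median, 0.82, 1.25 after rescaling) and malate dehydrogenase Mdh2 (482 to 922 TPM, 0.91, 1.35 after rescaling). Within cytochrome oxidase, the muscle subunits Cox6a2 (0.83) and Cox8b (0.73) and their counterparts in other tissues, Cox6a1 (-0.80) and Cox8a (-0.83), differed in opposite directions with none past the fold threshold. Only the muscle forms were called after rescaling (1.26 and 1.17).

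**Figure D3:**
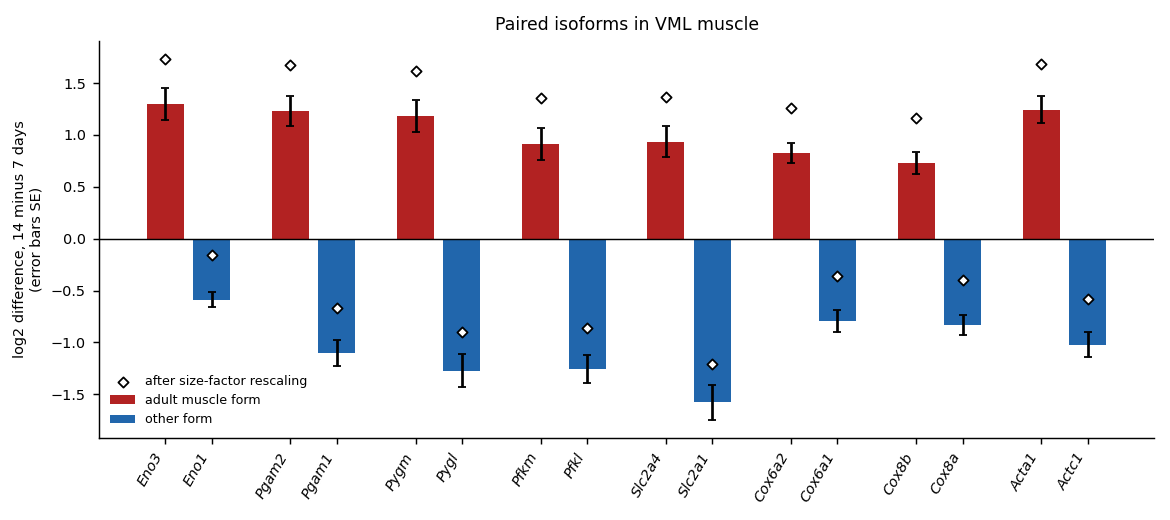
Log2 difference, 14 minus 7 DPI, of 8 pairs of related genes in VML muscle, with the form of adult muscle in red and the other form in blue. Bars are limma estimates on log2(TPM + 1), error bars are SE, and diamonds are the estimates after size-factor rescaling. Each adult muscle form is above 0 and each other form below 0 on both scales, and the pairs were chosen after their values were seen.

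Cytosolic ribosomal protein genes had small differences in 1 direction. All 61 lay below 0 (median -0.72, -0.29 after rescaling), as did 9132 of all 10964 genes on the TPM scale. For 55 of the 61 the days did not overlap, beside 12.1% of all genes wholly lower at 14 DPI. Rpl3 was called (1023 to 393 TPM in median, -1.29), though not after rescaling. The median of the 61 in contralateral muscle was -0.51, where 0 of them were called. Of 20 activity-induced early genes 4 were called lower and 1 higher (median -0.70, 18 of 20 below 0 and 13 after rescaling), 1 lower and 1 higher after rescaling, and 5 lower and 1 higher against the higher-numbered rats. The member called higher on the TPM scale was Ostn, the activity-regulated myokine musclin (6.17 to 30.8 TPM in median, 1.85, SE 0.34), with 52.7 ± 11.8 TPM in control (SD, n = 4).

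Of 27 genes that the study discusses, 14 were lower and 1 higher. The list was drawn up on these samples, so its count is no independent evidence. After rescaling 5 were lower and 2 higher, and against the higher-numbered rats 8 were lower and 0 higher. Besides those already named, S100a4 (1460.5 to 541 TPM in median, -1.37), the transcription factor Snai1 (-1.57), podoplanin Pdpn (-1.13), Tgfb1 (61.7 to 28.5 TPM, -1.07), lysyl oxidase Lox (-1.04) and the BMP target Id3 (-1.01) were called lower. Of these, Pdpn (-0.87), Tgfb1 (-0.93), Lox (-0.75) and Id3 (-0.77) were not called against the higher-numbered rats alone. Myostatin, Mstn, the inhibitor of muscle growth, was called higher: 1.13 to 5.99 TPM at 7 DPI (median 3.67) and 6.22 to 10.8 TPM at 14 DPI (median 8.80), without overlap (1.09, SE 0.16), and was not called against the higher-numbered rats (0.97). Control muscle held 19.8 ± 5.76 TPM (SD, n = 4), so Mstn was lowest at 7 DPI among these 3 groups. Bmp1 (-0.95), Col3a1 (-0.91), Pdgfra (-0.90), Id2 (-0.72), Smad2 (-0.49) and Eln (-0.11) were not called. Leaving out 1 muscle gave -0.199 to -0.042 for Eln. Smad3 (0.70) was called only after rescaling (1.13). Snai1, Tmem8c, Ccl2, Cd68 and Spp1 were the members called lower on both scales. Among the called genes named earlier, Mrc1 (-0.92), Il7r (-0.86), RT1-Da (-0.87), Fn1 (-0.86), Msc (-0.86), Plvap (-0.63), Pgam1 (-0.87), Myh4 (0.86) and Pygm (0.95) also missed the call against these rats.

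The wider course of these genes was read from mean levels at 3 DPI (10 muscles) and 28 DPI (8 muscles) of rats with the same labels, as a description. Spp1, Gpnmb, Lyz2, Hmox1 and Cdk1 had their highest mean at 3 DPI. Tnn, Tnc, Chrng, Tmem8c and Col1a1 had theirs at 7 DPI, with lower means at 14 and again at 28 DPI. For Spp1 the mean log2(TPM + 1) over these 4 days was 11.58, 8.94, 4.08 and 3.80, in order of time, beside 0.62 in control. For Ky it was 3.25, 4.59, 6.89 and 7.14, beside 6.87 in control.

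**Figure D4:**
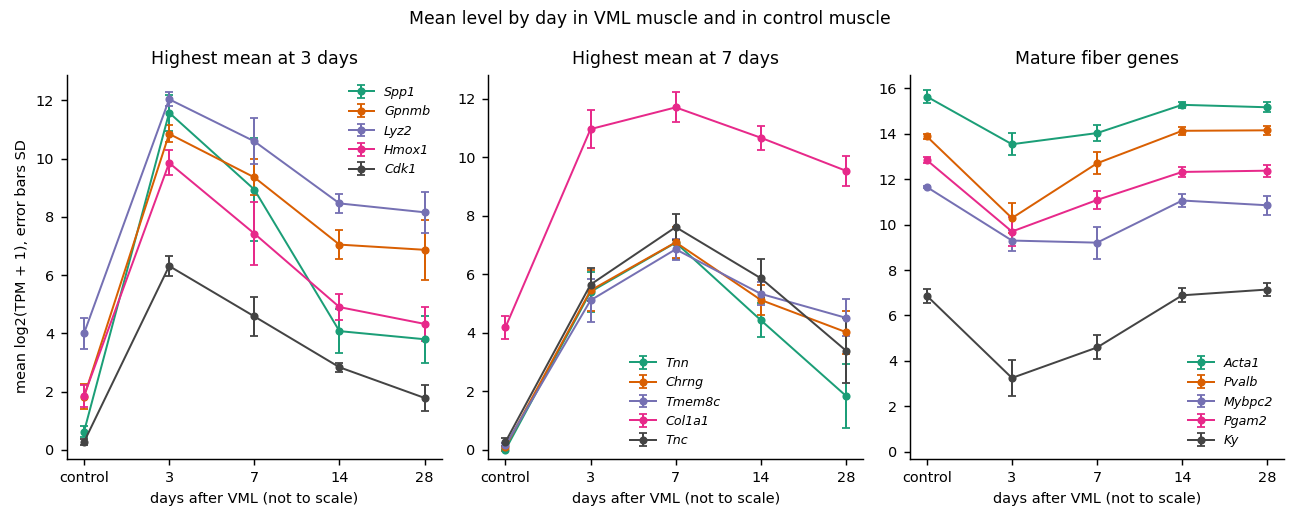
Mean log2(TPM + 1) of 15 genes in control muscle (4 muscles) and in VML muscle at 3 (10), 7 (16), 14 (8) and 28 DPI (8), with SD as error bars and days not to scale. The first panel shows genes with the highest mean at 3 DPI, the second genes with the highest mean at 7 DPI and the third genes of mature fibers, of which Ky and Pvalb are near control at 14 DPI.

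The contralateral muscles gave the background for time since surgery. Between 7 and 14 DPI 11 genes (0.1%) were called there, 1 higher and 10 lower (0.0912%). With a limma adjusted p under 0.05 alone, 797 genes differed, with 10 muscles at 7 DPI and 4 at 14 DPI. The genes tested were chosen by their level in VML muscle. A gene below 1 TPM in contralateral muscle cannot fall by more than 1 on the log2(TPM + 1) scale, which limits the share called. Tnn, with contralateral means of 0.075 and 0.0275 TPM, is such a gene. Srebf1, a regulator of lipid synthesis, was lower in contralateral muscle (-1.57) and differed by 0.86 in VML muscle. Sln, sarcolipin, an inhibitor of the calcium pump, was lower in contralateral muscle (-1.67) and not called in VML muscle (-0.52). When the change in contralateral muscle was subtracted, 1024 genes (9.34%) were called, 110 higher (1%) and 914 lower (8.34%) in VML muscle. After rescaling the count was 616, of which 281 were higher and 335 lower. With the low-complexity libraries kept it was 765, of which 4 were higher and 761 lower.

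Whether the change from 7 to 14 DPI depended on the graft was tested directly. In 8 grafted muscles at 7 DPI and 4 at 14 DPI against the same numbers of non-repaired muscles, 1 gene (0.00912%) passed the limma test of the difference between arms, and 148 genes had an unadjusted p under 0.05 (283 after rescaling). Leaving out 1 muscle gave 111 to 395 such genes, with 395, 226 and 270 without the non-repaired replicates 1, 3 and 4 at 7 DPI, respectively, and 224 without the grafted replicate 5 at 7 DPI. The gene was Myh8, the perinatal myosin heavy chain of newly formed fibers. In non-repaired muscle Myh8 measured 114 to 204 TPM at 7 DPI (median 170.1) and 51.5, 55.7, 70.3 and 79.2 TPM in the 4 muscles at 14 DPI. In grafted muscle it measured 130.6 to 244 TPM at 7 DPI (median 165) and 162, 188, 224 and 245 TPM at 14 DPI. The non-repaired muscles at 14 DPI lay below every other muscle of the 4 groups, while the grafted muscles of the 2 days overlapped. The change was 1.58 higher with the graft on the log2 scale (SE 0.23, limma adjusted p 0.00450). Myh3 had a difference in the same direction that was not called (0.57, SE 0.30), and Myl4 and Tmem8c were called lower in each arm tested alone. At 28 DPI Myh8 measured 11.6 to 89.0 TPM over both arms, and in control 7.46 ± 0.72 TPM (SD, n = 4).

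**Figure D5:**
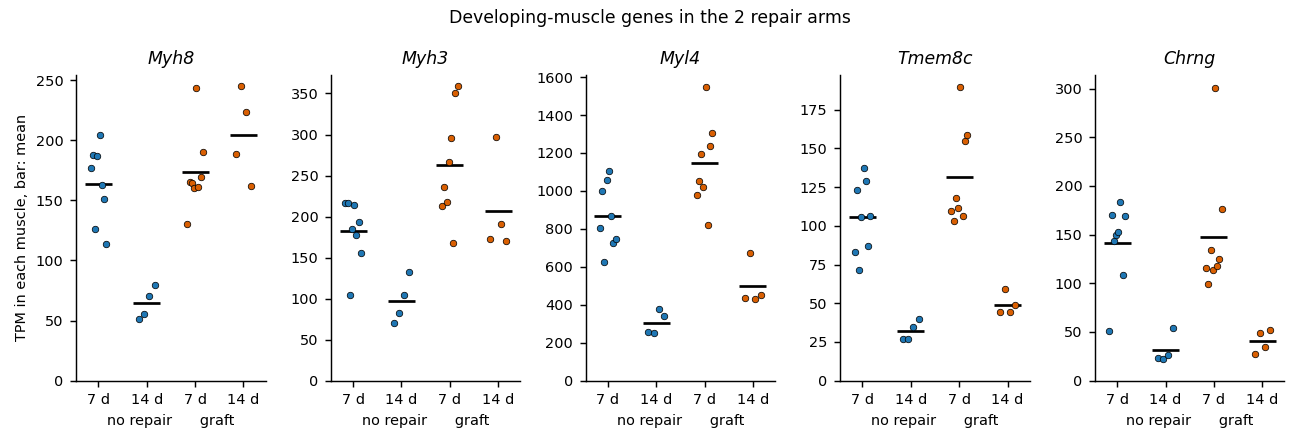
TPM of 5 genes of developing muscle in each VML muscle at 7 and 14 DPI, without repair (blue) and with minced graft (orange), with bars at the mean. Myh8 at 14 DPI is 51.5 to 79.2 TPM without repair and 162 to 245 TPM with the graft, whereas Tmem8c and Chrng are lower at 14 DPI in both arms.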

How the data were processed

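RNA-seq of rat TA muscle was used as deposited. The authors made the TPM values with Kallisto (rat genome build 6.0, Genbank annotation, per the study's methods) and tested counts with DESeq2, whereas only TPM was used here. The deposited table was analysed up to symbol Tubb3 (16181 symbols, 1 incomplete entry dropped), and later symbols were not analysed here. TPM keeps no sequencing depth.

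Of 138 libraries, 9 whose labels conflict were left unassigned and 13 with under 7000 symbols above 1 TPM were dropped. Genes with a mean over 1 TPM in at least 1 of the 4 groups of day and repair were kept (10964). limma 3.58.1 (R 4.3.3) was fitted with trend to log2(TPM + 1) with day and repair (21 residual degrees of freedom), with Benjamini-Hochberg adjustment over all genes. P-values measure the spread between rats. Genes were called at an adjusted p under 0.05 and a log2 difference beyond 1. Fold changes on this scale understate the change of low genes.

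Named were the 10 largest rises and falls without overlap between days (symbols starting with LOC or RGD left out), called members of the gene lists led by the largest changes, and all genes the study discusses. Members and lists were chosen with earlier results of these data known. The pairs of isoforms were chosen after their values were seen. Alternatives were another pseudocount, no filter, size factors, other sets of libraries or rats, single repair arms, other models and leaving out each muscle. Promoters came from RefSeq (GRCr8), a later build than that of the values, and were matched by symbol. Results for some genes are not reported here.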

Additional observations from a re-analysis of the deposited data

Results flagged for a closer look

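In groups of 4 or 8 muscles, a muscle was singled out where the gap between its TPM and the next muscle's exceeded Dixon's 95% critical share of the group's range. This held in 71 of 548 sets of gene and group (13%), for 63 genes, where chance gives about 1 in 20. The sets share muscles and genes that move together, and the cause was not tested.

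At 7 DPI, non-repaired muscle replicate 7 stood apart for Ky at 50.8, Mybpc2 at 1496, Adam11 at 23.11, Phkg1 at 155, Actn3 at 2369, P2rx6 at 12.58, Gpd2 at 32.57, Casq1 at 2611, Eno3 at 5647, Pgam2 at 3866 and Srebf1 at 100.4 TPM. At 7 DPI, grafted muscle replicate 6 stood apart for Adhfe1 at 9.06 and Ostn at 31.02 TPM. At 14 DPI, grafted muscle replicate 1 stood apart for Gpd2 at 52.27 TPM. At 7 DPI, non-repaired muscle replicate 4 stood apart for Hmox1 at 833.5, Cd8a at 27.39, Cd8b at 10.59 and Ftl1 at 4063 TPM. At 7 DPI, grafted muscle replicate 3 stood apart for Fabp5 at 417, Lgals3 at 1027, S100a4 at 2182, Snai1 at 70.7, Cd68 at 289, Lyz2 at 3439, Mmp12 at 192, Mmp19 at 74.66, Pgam1 at 183, Pfkl at 33.7, Hk3 at 18.22, Slc2a1 at 30.78, Cox6a1 at 648 and Cox8a at 773 TPM. At 14 DPI, grafted muscle replicate 2 stood apart for Timp1 at 81.65, Col1a1 at 3026, Tgfb1 at 37.53, Snai1 at 15.86, Bmp1 at 71.92, Myh3 at 297, Lox at 57.9, Cd68 at 54.92, Lyz2 at 577, Folr2 at 37.39, C5ar1 at 13.5, Lgmn at 130.6, Il7r at 1.89, Ftl1 at 1108, Tagln at 194, Myl4 at 672 and Plvap at 43.79 TPM. At 7 DPI, grafted muscle replicate 4 stood apart for Eln at 132.5 TPM. At 14 DPI, non-repaired muscle replicate 3 stood apart for Mmp2 at 372, Tgfbi at 123, Lum at 629, Eno1 at 236, Slc2a1 at 3.85 and Cox8b at 3584 TPM. At 14 DPI, non-repaired muscle replicate 2 stood apart for Id2 at 19.33 TPM. At 7 DPI, grafted muscle replicate 5 stood apart for Myog at 645, Myf6 at 477, Myod1 at 95.63, S100a8 at 45.72, Scx at 169, Chrng at 301, Chrnd at 885, Chrna1 at 748, Gadd45a at 1382 and Sln at 7895 TPM. At 14 DPI, non-repaired muscle replicate 4 stood apart for Tnc at 53.14 and Chrng at 53.83 TPM. At 7 DPI, non-repaired muscle replicate 3 stood apart for Mmp13 at 39.26 TPM. At 7 DPI, non-repaired muscle replicate 1 stood apart for Scx at 65.45 TPM.

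Scx in the non-repaired muscle replicate 1 at 7 DPI, and Id2 in the non-repaired muscle replicate 2 and Eno1 in the non-repaired muscle replicate 3 at 14 DPI, were below the rest of their group. The change of Myh8 from 7 to 14 DPI differed between repair arms by 1.578 on the log2 scale in the limma test of that difference, higher with the graft. The change differed between VML and contralateral muscle for 1024 genes.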

How the results depend on the processing

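The count of 1005 genes called in VML muscle was 1553 with a pseudocount of 0.1 TPM, 622 with size factors, 558 against the higher-numbered and 1649 against the lower-numbered rats at 7 DPI, and 8976 on the adjusted p alone. Size factors with the higher-numbered rats, a setting chosen after seeing the data, gave 355. Leaving out 1 muscle at a time gave 905 to 1140. In contralateral muscle 11 became 28 with the smaller pseudocount and 0 by limma with low-complexity libraries kept, where 1.19% of genes had an unadjusted p under 0.05. Leaving out 1 contralateral muscle gave 10 to 17, the latter without the non-repaired replicate 4 at 7 DPI. The count beyond contralateral muscle was 616 with size factors (281 higher, 335 lower). List members called (293 in all, each once) numbered 185 with the higher-numbered rats and 884 on the adjusted p alone, and with both size factors and these rats 36.2% of the 293.

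Of the named genes, Eln turned to 0.322 with size factors, 0.067 with low-complexity libraries kept, 0.116 with the higher-numbered rats, 0.037 in non-repaired muscle alone and 0.517 with size factors and the higher-numbered rats, where Mmp2 turned to 0.110 and Myh7 to -0.149. Pax7 turned to 0.072 with size factors. With the higher-numbered rats Myod1 turned to -0.251, Myh7 to -0.546 and Myl2 to -0.251. Myod1 was -0.048 with running rats pooled in. Leaving out 1 muscle at a time gave -0.002 to 0.172 for Myod1, the former without the non-repaired replicate 1 at 7 DPI, whose library held 16.2% ribosomal RNA. Myh8 was 0.243 in grafted muscle alone. The causes were not tested.

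The days compare different rats, so no pairing between days was possible. With the rat as a replicate block for VML and contralateral muscle, 1031 genes were called against 1024 (within-rat correlation -0.0235). No other call was tested with the block. TPM keeps no depth, so counting error is unknown here.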
